A study of Mus musculus with 4 samples.

Results

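The genes described here are 50 genes of the G1/S transition and of DNA replication: the parts of the replicative helicase, the licensing factors, the polymerases, the sliding clamp and its loader, the enzymes that supply deoxynucleotides, the G1/S cyclins, E2F transcription factors and the proteins that package new DNA. They were given as a list of names. All 50 were matched by symbol to an Entrez gene in the deposited tables, out of 18872 genes listed in at least 1 of the 4 libraries, and all 50 had enough counts to be tested. The RNA came from primary epithelial cells of the mouse colon. The knockout group (2 libraries, EZH2-IEC-/- in the labels) was made to lack Ezh2 in intestinal epithelial cells; the gene encodes the enzyme of the Polycomb complex PRC2 that methylates histone H3. The control group (2 libraries) was wild type. Mice of both groups had received DSS (dextran sulfate sodium), which damages the colon epithelium, at 2% for 3 days, so each difference below is between genotypes under DSS. The labels name neither the Cre driver nor the age of the mice, and they leave unsaid if the replicates were separate animals, so every p-value here is set against a spread between libraries that may be technical.

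A cell that commits to division in G1 activates cyclin D and cyclin E kinases, which release E2F factors from the retinoblastoma proteins, and E2F factors then switch on many of the genes listed here. Origins are licensed when ORC, CDC6 and CDT1 load the MCM2-7 ring on DNA. The kinases CDC7 and CDK2 then recruit CDC45 and the GINS complex to make the active helicase, behind which polymerase alpha with primase starts each strand and polymerases delta and epsilon extend it. In the colon these genes are used mainly by dividing cells of the crypt base and transit zone. Replication-dependent histone genes supply the proteins that wrap the new DNA. Their mRNAs are known for ending in a stem-loop bound by SLBP in place of a poly(A) tail, although some of them are known to give polyadenylated transcripts as well, also in cells that no longer divide.

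The libraries held 5037367 to 5446998 estimated counts each. Levels are given as FPKM, which scales fragments by transcript length and by sequencing depth, as the authors deposited them. Differences are log2 fold changes, knockout minus wild type, ± standard error, from edgeR's quasi-likelihood test on the estimated counts of all 13608 genes with enough counts. A gene is said to have risen or fallen where its Benjamini-Hochberg adjusted p over all those genes was under 0.05. Ezh2 had 86 and 83 counts in the knockout libraries and 105 and 102 counts in the wild-type libraries (log2 fold change -0.27 ± 0.17, adjusted p = 0.217). Reads from exons that a deletion leaves in place are counted too, so the total can neither bear out nor contradict the labels. The epithelial markers Epcam, Krt8 and Muc2 were abundant in all 4 libraries, with Krt8 at 3731.3 and 3785.3 FPKM in knockout and 3247.2 and 3300.8 FPKM in wild type.

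Of the 50 replication genes, 25 rose in knockout, or 50%, where 23.0% of all tested genes rose. Only Pold1 fell, that is 2% of the members, where 20.8% of all tested genes fell and 43.7% changed in either direction. The log2 fold change was positive for 46 of the 50 and its median was 0.52, against -0.002 for all tested genes. Summed over the 50 genes, the level in counts scaled to library size (CPM) was 2226.9 and 2156.0 CPM in the knockout libraries and 1579.5 and 1578.1 CPM in the wild-type libraries, 1.39 times higher in knockout. The FPKM of the groups did not overlap for 40 of the 50 genes, 37 of them higher in knockout. Such gaps were common with 2 libraries a group: they were found in 73.0% of all tested genes, and 30.4% were higher in knockout. In bulk RNA, more cells of a type and more RNA per cell cannot be told apart, so these values do not show whether more cells were in S phase. Scaling by library totals in place of TMM factors moved the median of all genes to -0.103 and the split of all called genes to 2555 higher and 3465 lower, against 3126 and 2824 with TMM factors. Under that scaling 22 members rose, 1 fell and their median was 0.41.

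**Figure D1:**
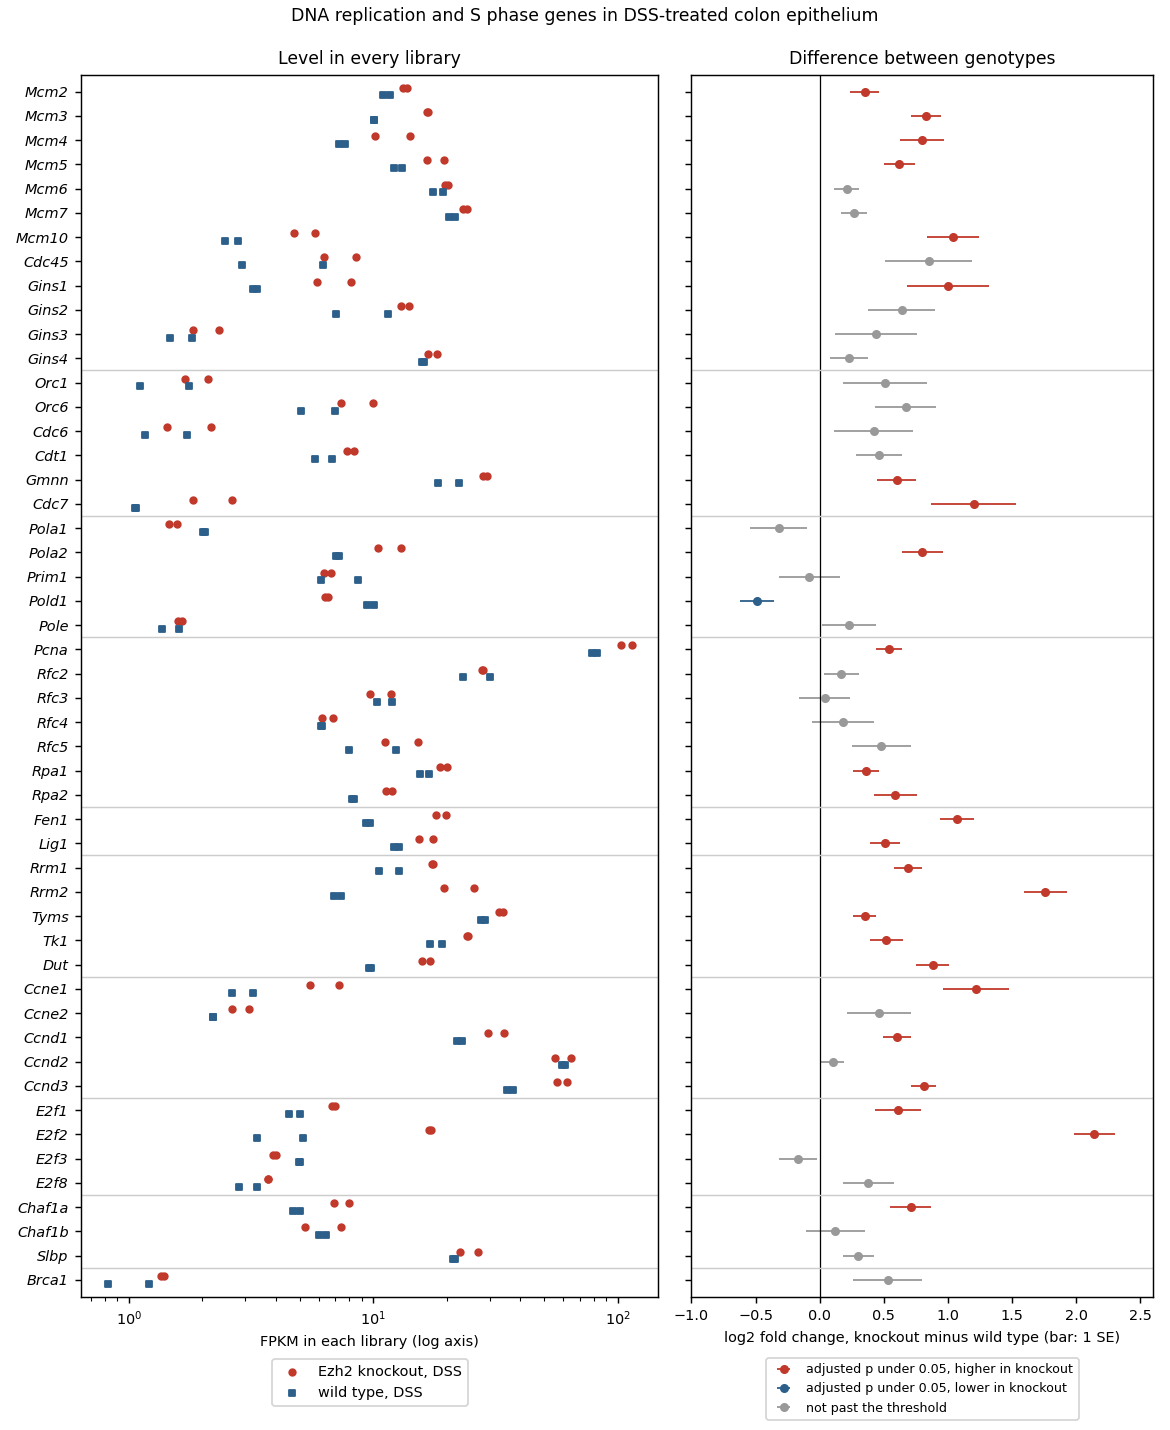
Levels (left, FPKM in each library on a log axis) and log2 fold changes (right, knockout minus wild type, with bars of 1 standard error) of the 50 genes, in blocks by role from the helicase at the top to Brca1 at the bottom. Most red knockout circles lie to the right of the blue wild-type squares; E2f2 and Rrm2 stand farthest right in the plot of differences, with 2.14 and 1.76, and Pold1 is the member past the threshold on the left, with -0.49.

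The 2 members with the most distant groups were E2f2 and Rrm2. E2f2, an activator of G1/S transcription, had 17.3 and 17.0 FPKM in the knockout libraries, against 3.35 and 5.18 FPKM in the wild-type libraries. Both knockout values were above both wild-type values by more than 3 times. The log2 fold change was 2.14 ± 0.16 (adjusted p = 1.39e-05). Rrm2, the small subunit of ribonucleotide reductase whose supply limits dNTP synthesis, had 25.8 and 19.5 FPKM in knockout and 7.39 and 6.94 FPKM in wild type. The groups did not overlap, and the knockout libraries differed from each other more than the wild-type libraries did. Its log2 fold change was 1.76 ± 0.17 (adjusted p = 6.02e-05).

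The other E2F genes did not share the size of that rise. E2f1, likewise an activator, had 6.81 and 6.95 FPKM in knockout and 4.53 and 5.04 FPKM in wild type, and rose by 0.61 ± 0.18 on the log2 scale (adjusted p = 0.02). Without wild-type replicate 1 it had 0.53 (adjusted p = 0.112) and without wild-type replicate 2 it had 0.69 (adjusted p = 0.0502). E2f3, the other activator of the list, had 3.89 and 4.0 FPKM in knockout and 4.97 and 5.02 FPKM in wild type, and the difference of -0.17 ± 0.15 did not pass (adjusted p = 0.375). E2f8, a repressor of the family, had 3.73 FPKM in both knockout libraries and 3.35 and 2.82 FPKM in the wild-type libraries, and did not pass (0.38 ± 0.20, adjusted p = 0.16). Per length, E2f2 was 4.44 and 4.26 times as abundant as E2f3 in knockout, and 0.674 and 1.03 times in wild type.

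The MCM2-7 ring, the motor that unwinds DNA, is made of a copy of each of its subunits, and its genes did not all pass. Mcm3 had 16.6 and 16.7 FPKM in knockout and 10.1 FPKM in both wild-type libraries, and rose by 0.83 ± 0.12 on the log2 scale (adjusted p = 0.000554). Mcm4 had 14.1 and 10.2 FPKM in knockout, against 7.68 and 7.23 FPKM in wild type (0.80 ± 0.17, adjusted p = 0.00454). Mcm5 had 19.4 and 16.6 FPKM in knockout, against 13.1 and 12.2 FPKM in wild type (0.62 ± 0.12, adjusted p = 0.0026). In each of these 3 genes the groups were apart. The FPKM of the groups did not overlap for Mcm2, Mcm6 or Mcm7 either. Mcm2 rose by 0.35 ± 0.11 (adjusted p = 0.0313), at 13.7 and 13.3 FPKM in knockout and 11.7 and 11 FPKM in wild type. It did not pass without knockout replicate 1 (0.33, adjusted p = 0.0927), without wild-type replicate 1 (0.38, 0.0869) or without wild-type replicate 2 (0.32, 0.158). Neither Mcm6, at 0.21 ± 0.10, nor Mcm7, at 0.27 ± 0.10, passed (adjusted p = 0.12 and 0.0527), and Mcm6 is the member whose transcript list differs between the replicate 1 and replicate 2 files. These were the most abundant subunits in wild type, Mcm7 with 20.5 and 21.6 FPKM and Mcm6 with 19.3 and 17.6 FPKM. The highest of the 6 subunits was 1.77 and 2.28 times the lowest in the knockout libraries and 2.67 and 2.99 times the lowest in the wild-type libraries.

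**Figure D2:**
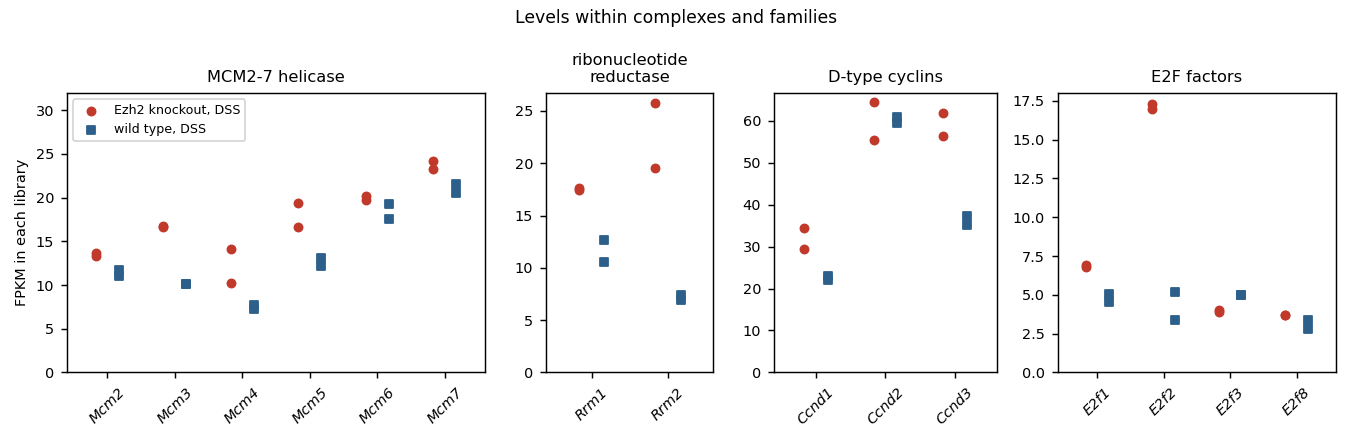
FPKM in each library for the MCM2-7 subunits, both subunits of ribonucleotide reductase, the D-type cyclins and E2F factors, with knockout (red circles) to the left of wild type (blue squares) for each gene and every axis starting at 0. Mcm3 to Mcm5 are apart between genotypes while Mcm6 and Mcm7 lie closer, though without overlap. Rrm2 lies above Rrm1 in the knockout libraries and below it in wild type. Ccnd2 overlaps between genotypes while Ccnd1 and Ccnd3 do not.

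Among the other helicase genes, Mcm10, which helps to start the assembled helicase, had 5.81 and 4.73 FPKM in knockout and 2.81 and 2.48 FPKM in wild type, and rose by 1.04 ± 0.20 on the log2 scale (adjusted p = 0.00284). Gins1, a GINS subunit, had 36 and 29 counts in knockout and 15 and 18 counts in wild type, and rose by 1.00 ± 0.32 (adjusted p = 0.0333). That call was lost without knockout replicate 1 (0.82, adjusted p = 0.203), without wild-type replicate 1 (0.89, 0.149) and without wild-type replicate 2 (1.1, 0.086). The remaining GINS genes Gins2, Gins3 and Gins4 did not pass, at 0.64, 0.44 and 0.23 (adjusted p = 0.0723, 0.299 and 0.229). Cdc45, the helicase cofactor, had 86 and 64 counts in knockout and 26 and 59 counts in wild type. The wild-type libraries thus differed from each other, and its log2 fold change of 0.85 ± 0.34 did not pass (adjusted p = 0.0718). Without wild-type replicate 2, Cdc45 and Gins2 had 1.52 (adjusted p = 0.00467) and 1.04 (adjusted p = 0.0194). Cdc45 also passed without knockout replicate 2 (1.06, adjusted p = 0.0182) and in the fit limited to genes whose transcript lists match between files (0.84, adjusted p = 0.0468), where Orc6, an origin recognition subunit, passed too (0.66, adjusted p = 0.0407).

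Of the 6 licensing and firing genes, 2 rose, or 33.3%, beside 23.0% of all tested genes. The other 4 did not pass. Cdc7, the catalytic subunit of the kinase that fires licensed origins, had 30 and 43 counts in the knockout libraries and 16 counts in each wild-type library. Its log2 fold change was 1.20 ± 0.33 (adjusted p = 0.0163). Gmnn encodes geminin, which binds CDT1 and prevents a second licensing in S and G2. It had 28.2 and 29.1 FPKM in knockout and 22.4 and 18.4 FPKM in wild type, and rose by 0.60 ± 0.15 (adjusted p = 0.0127). Cdt1 itself had 7.82 and 8.32 FPKM in knockout and 6.80 and 5.77 FPKM in wild type (0.46 ± 0.18, adjusted p = 0.0666). Orc6 (0.67, adjusted p = 0.0523), Orc1 (0.51, adjusted p = 0.25) and Cdc6 (0.42, adjusted p = 0.305), which recognise origins and load the ring, did not pass. Orc1 and Cdc6 had 17 to 54 counts a library, and their FPKM overlapped between groups, though the CPM of Orc1 did not overlap. Cdc7 did not pass without knockout replicate 2 (0.94, adjusted p = 0.129), wild-type replicate 1 (1.22, 0.0565) or wild-type replicate 2 (1.18, 0.0631), the call of Gmnn ended without wild-type replicate 2 (0.46, 0.096), and Orc6 passed without knockout replicate 2 (0.86, 0.0153) or wild-type replicate 1 (0.89, 0.045).

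Of the 5 polymerase and primase genes, 1 rose and 1 fell, or 20% each, near the 23.0% and 20.8% of all tested genes. Pola2, the accessory subunit of polymerase alpha, had 13 and 10.5 FPKM in knockout and 7.24 and 7.07 FPKM in wild type, and rose by 0.80 ± 0.16 on the log2 scale (adjusted p = 0.00364). Pola1, the catalytic subunit of the same enzyme, had 1.57 and 1.46 FPKM in knockout and 2.05 and 2.01 FPKM in wild type. Its FPKM values were apart in the other direction, but the difference did not pass (-0.32 ± 0.22, adjusted p = 0.275). Pold1, the catalytic subunit of polymerase delta, had 6.54 and 6.37 FPKM in knockout and 9.43 and 10.1 FPKM in wild type. It fell by 0.49 ± 0.13 on the log2 scale (adjusted p = 0.0158), a call lost without wild-type replicate 2 (-0.44, adjusted p = 0.0946) and with DESeq2. Prim1, the primase subunit that makes RNA primers, and Pole, the catalytic subunit of polymerase epsilon, did not pass (-0.08 and 0.23, adjusted p = 0.818 and 0.416). Their FPKM overlapped between groups, though the CPM of Pole did not overlap.

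Pcna, the sliding clamp, was the most abundant member, with 114.6 and 103.0 FPKM in knockout and 82.5 and 78.4 FPKM in wild type. It rose by 0.54 ± 0.10 on the log2 scale (adjusted p = 0.00222). None of the 4 clamp loader genes passed, where 43.7% of all tested genes did. Rfc2, Rfc3, Rfc4 and Rfc5 had log2 fold changes of 0.17, 0.04, 0.18 and 0.48 (adjusted p = 0.372, 0.881, 0.583 and 0.133). The FPKM of the groups overlapped for each of them, though the CPM of Rfc4 did not overlap. Rfc5 passed without knockout replicate 2 (0.68, adjusted p = 0.0266) and without wild-type replicate 2 (0.83, adjusted p = 0.0242), and the sign of Rfc2 and Rfc3 changed with the setting. Rpa1 and Rpa2, subunits of the protein that coats single-stranded DNA, rose by 0.36 ± 0.10 and 0.59 ± 0.17 (adjusted p = 0.0206 and 0.0181). Rpa1 had 20.1 and 18.8 FPKM in knockout and 17.0 and 15.6 FPKM in wild type, Rpa2 had 11.9 and 11.3 FPKM in knockout and 8.38 and 8.16 FPKM in wild type. Leaving out knockout replicate 1, wild-type replicate 1 or wild-type replicate 2 ended the calls of both, with Rpa1 at 0.31, 0.42 and 0.30 (adjusted p = 0.105, 0.0542 and 0.163) and Rpa2 at 0.55, 0.60 and 0.57 (adjusted p = 0.0562, 0.0656 and 0.0818).

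Both genes of Okazaki fragment maturation rose. Fen1, the flap nuclease that trims the displaced primer, had 19.8 and 18 FPKM in the knockout libraries and 9.33 and 9.74 FPKM in the wild-type libraries. That is a log2 fold change of 1.07 ± 0.13 (adjusted p = 0.00027). Lig1, the ligase that seals the nick, had 15.4 and 17.6 FPKM in knockout and 12.2 and 12.7 FPKM in wild type (0.51 ± 0.12, adjusted p = 0.00731). All 5 nucleotide supply genes rose as well, where 23.0% of all tested genes rose. Besides Rrm2, Dut, which removes dUTP, had 15.8 and 17.1 FPKM in knockout and 9.76 and 9.63 FPKM in wild type (0.88 ± 0.13, adjusted p = 0.000684). Rrm1, the large subunit of ribonucleotide reductase, had 17.6 and 17.4 FPKM in knockout and 12.7 and 10.6 FPKM in wild type (0.69 ± 0.11, adjusted p = 0.00122). Per length, Rrm2 stood at 1.46 and 1.12 times Rrm1 in knockout and at 0.582 and 0.654 times in wild type. Tk1, thymidine kinase, and Tyms, thymidylate synthase, rose by 0.52 ± 0.13 and 0.35 ± 0.09 (adjusted p = 0.0122 and 0.0124). The call of Tk1 was lost when wild-type replicate 1 was left out (0.44, adjusted p = 0.0843), and that of Tyms when wild-type replicate 2 was (0.33, adjusted p = 0.0784).

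Of the 5 G1/S cyclins, 3 rose, or 60%, beside 23.0% of all tested genes. Ccne1, the cyclin E gene that activates CDK2, had 7.23 and 5.53 FPKM in knockout and 3.24 and 2.64 FPKM in wild type (1.22 ± 0.26, adjusted p = 0.00476). Its paralog Ccne2 had 3.10 and 2.65 FPKM in knockout and 2.22 and 2.21 FPKM in wild type and did not pass (0.46 ± 0.25, adjusted p = 0.164). Of the D-type cyclins, which pair with CDK4 and CDK6, Ccnd3 had 62.0 and 56.5 FPKM in knockout and 35.2 and 37.4 FPKM in wild type. It rose by 0.81 ± 0.10 on the log2 scale (adjusted p = 0.000233). Ccnd1 had 34.4 and 29.4 FPKM in knockout and 23.1 and 22.1 FPKM in wild type (0.60 ± 0.11, adjusted p = 0.00186). Ccnd2 overlapped between groups, with 55.4 and 64.6 FPKM in knockout and 60.9 and 59.4 FPKM in wild type, and did not pass (0.10 ± 0.09, adjusted p = 0.413). Ccnd3 was 1.12 and 0.876 times as abundant as Ccnd2 in knockout, and 0.578 and 0.63 times in wild type.

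The remaining members serve chromatin and repair. Chaf1a, the large subunit of the chromatin assembly factor that deposits histones behind the fork, had 6.94 and 7.93 FPKM in knockout and 4.71 and 5.04 FPKM in wild type, and rose by 0.71 ± 0.16 on the log2 scale (adjusted p = 0.00661). Its partner subunit Chaf1b overlapped between groups (0.12 ± 0.23, adjusted p = 0.69). Slbp, which binds the histone mRNA stem-loop, had 26.8 and 22.6 FPKM in knockout and 21.3 and 21.7 FPKM in wild type, and did not pass (0.30 ± 0.12, adjusted p = 0.0772), but passed without knockout replicate 2 (0.43, adjusted p = 0.0182). Brca1, a repair factor that protects stalled forks, was the least abundant member and did not pass (0.53 ± 0.27, adjusted p = 0.143).

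The members differed in depth. Of the 28 members with a mean of 100 or more counts a library, 19 rose, with a median standard error of 0.12. Of the 22 members below that mean, 6 rose, with a median standard error of 0.24. Among all tested genes, at any depth, 23.0% rose. A member without a call is not shown to be unchanged. DESeq2 on the same counts ended 9 of the 26 calls, those of Mcm2, Gins1, Gmnn, Cdc7, Pold1, Rpa1, Rpa2, Tk1 and E2f1, with adjusted p from 0.0607 to 0.169. Scaling by library totals ended those of Mcm2, Rpa1 and Tyms.

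Further genes of the same machinery were described for comparison. Of 69 other replication and G1/S genes, 20 rose, or 29.0%, and 3 fell, or 4.35%, beside the 23.0% and 20.8% of all tested genes. Their median log2 fold change was 0.34. The smallest p-values among those that rose belonged to Nasp, a histone chaperone, Top2a, the topoisomerase of S and G2 phase, Dbf4, the activating partner of CDC7, and Uhrf1, which recruits the maintenance DNA methyltransferase. Dbf4 had 8.38 and 7.18 FPKM in knockout and 3.16 and 3.43 FPKM in wild type. Its log2 fold change of 1.34 ± 0.20 (adjusted p = 0.000746) stood beside the 1.20 of Cdc7. Nasp, Top2a and Uhrf1 rose by 0.75, 0.93 and 0.67 (adjusted p = 0.000564, 0.000656 and 0.00132). The 3 that fell were Mcmbp, an MCM-binding protein, Rbl2, a retinoblastoma family repressor of E2F targets, and Tfdp2, a dimer partner of E2F factors, with log2 fold changes of -0.55, -0.74 and -0.66 (adjusted p = 0.00204, 0.00445 and 0.0134). The count that rose was 13 without knockout replicate 1 and 11 with DESeq2. Of 20 mitosis genes, 19 rose and 0 fell, with a median log2 fold change of 0.85. Their summed level was 1062.4 and 963.1 CPM in knockout and 565.6 and 545.0 CPM in wild type.

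**Figure D3:**
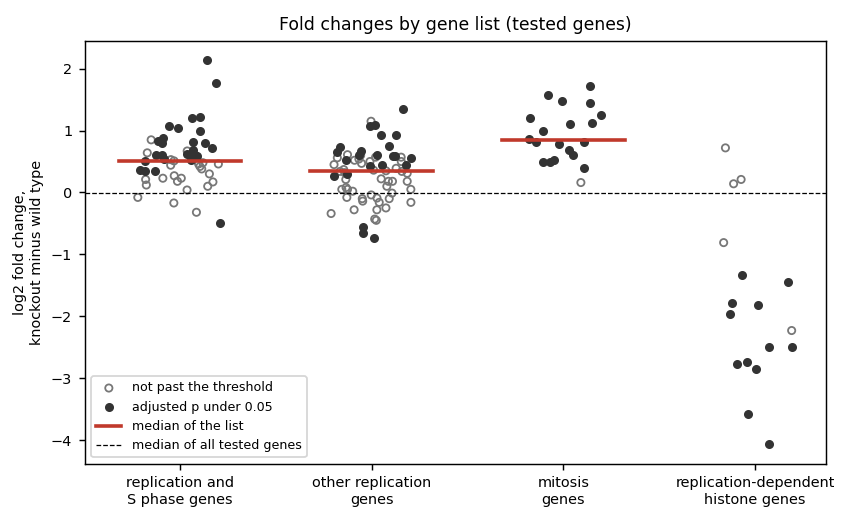
Log2 fold changes (knockout minus wild type) of the tested genes of each list, with filled circles for an adjusted p under 0.05, open circles for the rest, a red line at the median of each list except the histone genes and a dashed line at the median of all tested genes. The medians are 0.52 for the 50 replication genes, 0.34 for other replication genes and 0.85 for mitosis genes. No median is drawn for the 17 tested histone genes, since some of them had enough counts only in wild type.

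The summed level of the replication-dependent histone genes was lower in knockout. All 60 that were listed in the files, out of 67 in the reference table, were summed, since their near-identical copies share reads and none of the 17 tested had whole counts in every library. H2bc23 and H4bc24 had the same values in every library, 3.03 and 5.51 counts in knockout and 6.45 and 55.4 counts in wild type. The same estimate thus entered the sum for each of them. The sum was 135.3 and 298.3 CPM in the knockout libraries and 664.9 and 734.5 CPM in the wild-type libraries, 3.23 times higher in wild type, and the groups did not overlap. Most of the difference between the knockout libraries lay in H2ac22 and H2ac23, H2A genes counted almost only in the replicate 2 libraries of both groups. H2ac23 had 8.47 and 585.8 counts in knockout replicates 1 and 2, and 0 and 368.9 counts in wild-type replicates 1 and 2. Without H2ac22 and H2ac23, a choice made after seeing the data, the sums were 133.7 and 163.2 CPM in knockout and 664.0 and 646.1 CPM in wild type, 4.41 times higher in wild type. The direction of the histone sum is thus opposite to that of the 50 replication genes in both pairs of same-numbered libraries. The sum holds only the histone transcripts that these libraries captured. Transcripts with and without a poly(A) tail cannot be told apart in it, so it is no measure of all histone mRNA made in S phase.

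**Figure D4:**
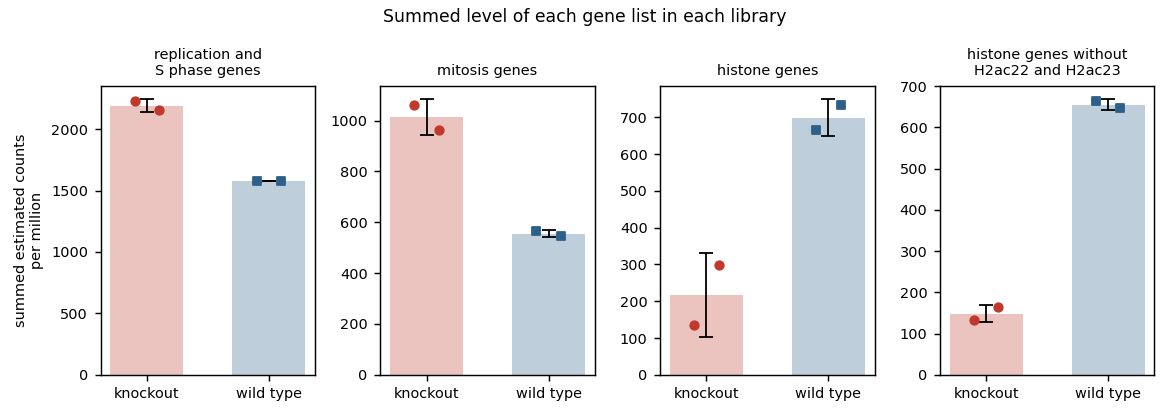
Summed estimated CPM of each list in each library (points), with the mean (bar, from 0) and SD (error bar, n = 2), knockout at the left and wild type at the right of each panel. The 50 replication genes and the mitosis genes are higher in both knockout libraries, and the histone genes lower, with and without H2ac22 and H2ac23.

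The 4 histone genes with the highest mean FPKM were H1f2, H2bc4, H2ac18 and H2ac23. The counts of H2ac23, given above, overlapped between the groups and it did not pass (0.72 ± 1.33, adjusted p = 0.691). H1f2, a linker histone gene, had 185.8 and 174.6 counts in the knockout libraries and 1389.0 and 1256.2 counts in the wild-type libraries. Both knockout values were far below both wild-type values, a log2 fold change of -2.85 ± 0.11 (adjusted p = 3.67e-07). H2bc4, an H2B gene, had 229.9 and 267.4 counts in knockout and 879.2 and 853.1 counts in wild type (-1.78 ± 0.11, adjusted p = 3.53e-06). H2ac18, an H2A gene, had 114.9 and 144.3 counts in knockout and 501.7 and 529.9 counts in wild type (-1.97 ± 0.12, adjusted p = 3.98e-06). The less abundant H2aw, also of the H2A family, had 15.7 and 45.4 counts in knockout and 185.1 and 238.8 counts in wild type (-2.77 ± 0.32, adjusted p = 0.000182). In H1f2, H2bc4, H2ac18 and H2aw the groups were apart. The other histone genes that fell were H1f3, H1f4, H2bc6, H2bc8, H2bc21, H4c8, H4c9 and H4c18, with log2 fold changes from -4.07 to -1.34, and none rose. Several of these calls were not stable. H2bc6, whose FPKM overlapped between groups, was called in 6 of 12 alternatives and had -0.17 (adjusted p = 0.681) with limma on log2(FPKM + 1). H1f4 was called in 7 of 12, with -1.55 (adjusted p = 0.216) without knockout replicate 1, -2.35 (0.0951) without wild-type replicate 1 and -2.63 (0.0669) without wild-type replicate 2. H2bc6 likewise did not pass without those libraries, at -1.43, -1.85 and -1.81 (adjusted p = 0.154, 0.0597 and 0.0799). H2bc8 was called in 8 of 12 and did not pass without knockout replicate 1, knockout replicate 2 or wild-type replicate 1 (-2.50, -2.48 and -2.35, adjusted p = 0.0878, 0.0884 and 0.053). H4c18 did not pass without knockout replicate 2 (-2.65, adjusted p = 0.0632). Of the 12 that fell, 6 had under 10 counts in both knockout libraries and so were tested only through their wild-type counts, and the number of falls among the tested genes is no measure of the list. H3c15 did not pass (-0.81 ± 0.31, adjusted p = 0.0627), nor did H2ac10, H2ac19, H2ac22 and H2ac23. The kinds of cell and of histone transcript behind these counts cannot be told apart in these tables.

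**Figure D5:**
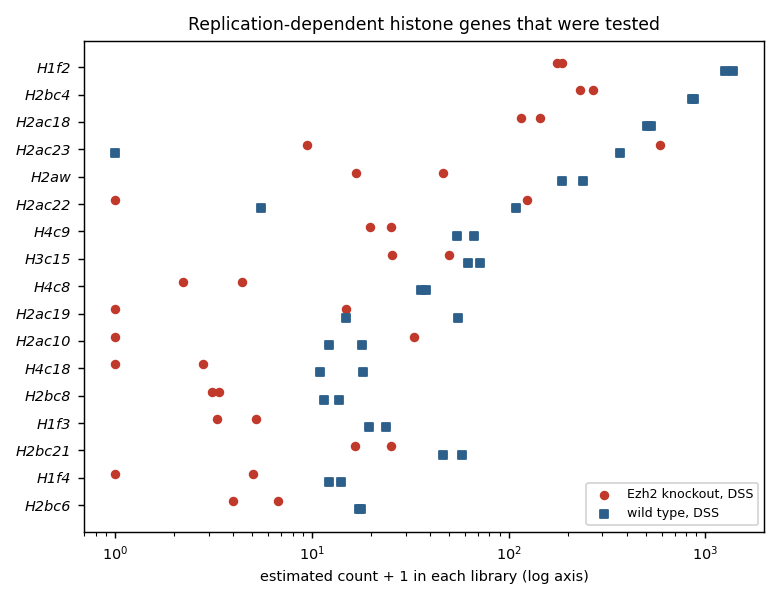
Estimated count plus 1 in each library (log axis) of the 17 histone genes that were tested, with knockout (red circles) above wild type (blue squares) in each row and rows ordered by mean FPKM from the bottom. H1f2, H2bc4 and H2ac18 at the top are apart between genotypes, while H2ac23 and H2ac22 spread over the replicate numbers within both groups.

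Promoter sequences from RefSeq (GRCm38.p6, 250 bases before to 50 bases after each start site) were searched on both strands for an E2F match (TTTCCCGC, TTTGGCGC, TTTCGCGC or TTTGCCGC), for the CCAAT box (CCAAT) and for the CHR element of mitotic genes (TTTGAA). Each motif was counted on its own, so matches of different motifs may overlap. Windows were found for 40 of the 50 members, for 10807 of the tested genes and for 62 of the histone genes. An E2F match stood in 35.0% of the member promoters, 14 of 40, against 4.53% of the promoters of all tested genes and 2.6% of all promoters in the table. Among members with a window, it stood in 4 of the 21 that rose and in 10 of the 19 that did not. A CCAAT box stood in 62.5% of the member promoters, 42.6% of those of all tested genes and 85.5% of those of histone genes. The CHR letters stood in 20% of member promoters, 14.7% of those of all tested genes, 66.7% of those of mitosis genes and 46.8% of those of histone genes. These are matches of letters and not sites of binding. The lines below show an E2F match (capitals) upstream of an MCM gene that rose (Mcm5), of an MCM gene that did not pass (Mcm6) and of the polymerase gene Pola1, and the CCAAT box (capitals) upstream of 2 linker histone genes that fell. Each is written 5′ to 3′ on the strand of the gene.
Mcm5, chr8:75109330-75109397, plus strand: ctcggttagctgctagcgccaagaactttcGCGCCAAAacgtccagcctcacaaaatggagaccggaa
Mcm6, chr1:128359715-128359782, minus strand: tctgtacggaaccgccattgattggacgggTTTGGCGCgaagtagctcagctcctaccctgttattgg
Pola1, chrX:93632256-93632323, minus strand: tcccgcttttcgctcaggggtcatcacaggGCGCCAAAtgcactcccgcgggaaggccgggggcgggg
H1f2, chr13:23738723-23738787, plus strand: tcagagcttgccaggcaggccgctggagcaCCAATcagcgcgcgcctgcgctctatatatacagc
H1f3, chr13:23554951-23555015, plus strand: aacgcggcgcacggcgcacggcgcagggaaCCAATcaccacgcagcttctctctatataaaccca
The E2F match ended 39 bases before the start site in Mcm6, 141 bases before it in Mcm5 and 130 bases before it in Pola1. The CCAAT box ended 49 bases before the start site in H1f2 and 46 bases before it in H1f3.

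Markers of other cells moved with these lists, and their part in the results was not tested. The counts of markers below stand beside 23.0% of all tested genes that rose and 20.8% that fell. Of 11 T and NK cell markers, 9 could be tested and these 9 rose, though Cd4 was called in only 4 of 12 alternatives. In the wild-type libraries Nkg7 had 0 and 4 counts, Gzma 3 and 8, and Gzmb 4 and 1. These genes were tested only through their knockout counts, so the number of rises is no measure of the list. The summed level of the list was 79.0 and 73.0 FPKM in knockout and 13.7 and 12.0 FPKM in wild type, with Gzma and Gzmb the most abundant in knockout and Cd4 and Cd3d in wild type. Trac was not analysed here. Of 8 macrophage and dendritic cell markers, 6 rose and 0 fell, with 382.9 and 438.1 FPKM in knockout and 276.1 and 295.7 FPKM in wild type, most of it Lyz2 and C1qa. Ptprc, which marks all leukocytes, had 9.46 and 11.4 FPKM in knockout and 8.75 and 8.27 FPKM in wild type and rose by 0.38 on the log2 scale, a call held in 5 of 13 alternatives, with adjusted p up to 0.163 when a library was left out. The plasma cell gene Jchain rose, at 196.9 and 249.4 FPKM in knockout and 134.0 and 113.6 FPKM in wild type, and so did Mzb1, at 30.8 and 42.4 FPKM in knockout and 13.6 and 11.6 FPKM in wild type. Of 5 tested neutrophil markers, 3 rose, with a sum of 155.4 and 338.0 FPKM in knockout and 6.95 and 250.9 FPKM in wild type. In the wild-type libraries S100a8 had 3 and 5 counts and S100a9 had 2 and 3, so they too were tested only through their knockout counts. S100a8 was at 98.0 and 89.5 FPKM in knockout and 1.64 and 2.63 FPKM in wild type, Ly6g was counted only in the replicate 2 libraries, and Mpo and Elane were not analysed here. Of 9 fibroblast and smooth muscle markers, 8 fell, with a sum of 1045.3 and 1341.2 FPKM in knockout and 2326.8 and 2507.7 FPKM in wild type, led by Tagln and Acta2. Both tested erythroid markers, Hba-a1 and Hbb-bs, fell, and the sum of that list was 13.1 and 27.1 FPKM in knockout and 80.7 and 52.5 FPKM in wild type.

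Markers of the crypt compartment, where epithelial cells divide, were read beside the replication genes. Of 9 tested stem and transit cell genes, 1 rose and 4 fell, with a sum of 59.4 and 61.3 FPKM in knockout and 94.6 and 95.5 FPKM in wild type. The highest over both groups were Lrig1, a stem cell regulator of ERBB receptors, which had 14.2 and 14.7 FPKM in knockout and 27.9 and 28.0 FPKM in wild type (-0.85), and Sox9, a crypt transcription factor, which had 5.13 and 8.31 FPKM in knockout and 20.5 and 23.7 FPKM in wild type (-1.61). In knockout alone, Sox9 was below Smoc2, Cd44, Myc and Rnf43. Cd44, an adhesion receptor, was the gene that rose, with 9.02 and 9.76 FPKM in knockout and 7.59 and 7.0 FPKM in wild type (0.50, adjusted p = 0.00987). Smoc2 and Myc overlapped between groups and did not pass. Lgr5, the stem cell receptor, had 0.71 and 0.83 FPKM in knockout and 1.26 and 1.17 FPKM in wild type and did not pass. Of 12 markers of colon epithelium, 7 rose and 3, Epcam, Cdh1 and Car1, fell. Among all tested genes, 23.0% rose and 20.8% fell. The part of these shifts in the results on replication genes was not tested.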

How the data were processed

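RNA-seq libraries of TruSeq RNA type were made from Trizol RNA, per the labels' protocols. The authors deposited for each library an expected count (an estimated count that need not be whole), an FPKM value and a length per gene, per the file headers. The submitters' processing notes name Bowtie2, BWA and the human build hg19, although the transcripts are mouse RefSeq accessions; which tool made the counts is not stated in those notes or the labels. Gene identifiers were named from the mouse RefSeq table (GRCm38.p6), with 18820 of 18872 matched. A gene absent from 1 file got 0 there. The replicate 1 and replicate 2 files use unlike transcript lists for 1109 genes, among the members Mcm6. Libraries of a group differed beyond sampling noise (chi-square per degree of freedom 2.95 in knockout and 2.18 in wild type, over genes with at least 20 counts a pair) and were kept apart.

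Expected counts were rounded and tested with the R 4.3.3 package edgeR 4.0.16 (filter by filterByExpr, TMM factors of 0.9647 and 0.9664 in knockout and 1.036 and 1.035 in wild type, quasi-likelihood, two-sided, no block, Benjamini-Hochberg over 13608 genes). The biological coefficient of variation was 12.9%. The test was tried on simulated counts. There it recovered 33 of 100 genes with a 1.5-fold change and 100 of 100 with a 3-fold change. It made 6 false calls among the unchanged genes. Alternatives were limma 3.58.1 on log2(FPKM + 1) and log2(FPKM + 0.1), DESeq2 1.42.0, other scaling and filters, the replicate block and leaving out each library. CPM values use TMM-scaled library sizes. The members and lists were chosen with earlier results of these data known, and no list was given a test. All members are named; of other replication genes the 4 smallest p each way among called genes (only 3 fell), of histone genes the 4 most abundant and every called gene, and of marker lists the most abundant. H2ac22 and the genes named beyond this were chosen after their values were seen. For 1 marker list, not all results are reported here.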

Additional observations from a re-analysis of the deposited data

How the results depend on the processing

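Of the 26 members called, 16 kept a call in the same direction under all of the 13 alternatives that tested them, and none changed sign. The count of members that rose ranged from 17 (DESeq2) to 32 (replicate block). The calls over all tested genes moved too. With DESeq2 2376 genes rose and 2003 fell, and with the replicate block 3855 rose and 3548 fell, against 3126 and 2824 in the main fit. The members that fell numbered 0 with DESeq2 and 0 to 1 with a library left out. The members' median log2 fold change of 0.52 became 0.37 and 0.42 with limma on log2(FPKM + 1) and log2(FPKM + 0.1) and 0.41 with library totals, and ranged from 0.48 to 0.58 with a library left out. The same-numbered libraries deviated together (correlation 0.571), but with 2 pairs the numbers do not establish a pairing. With the replicate block 32 members rose and 1 fell, the 7 added being Mcm7, Cdc45, Gins2, Orc6, Cdt1, Rfc5 and Slbp, on genes with the same transcripts likewise 32 and 1, and 1 histone gene rose under both. Of the other replication genes, 11 rose with DESeq2, 13 with a mean FPKM of at least 5 and 29 with the replicate block, and 13 to 20 with a library left out. Those that fell numbered 5 with library totals, 5 with the replicate block and 5 with the block on genes with the same transcripts. Their median became 0.20 and 0.25 in the limma fits, 0.24 with library totals and 0.23 with the FPKM filter, and ranged from 0.27 to 0.38 with a library left out. Of the histone genes, 6 fell with the FPKM filter, and 0 to 1 rose and 9 to 15 fell with a library left out. The median of the mitosis genes was 0.64 with limma on log2(FPKM + 1). The ratio of summed histone CPM, 0.31, was 0.227 without H2ac22 and H2ac23. Of the members without a call, 5 changed sign under an alternative. Rfc3 had -0.06 in both limma fits and with library totals, -0.03 with the FPKM filter. Ccnd2 had -0.01 in both limma fits and without knockout replicate 2, and -0.0 with library totals. With a library left out, Prim1 ranged from -0.31 to 0.19, Rfc2 from -0.01 to 0.36, Rfc3 from -0.09 to 0.17 and Chaf1b from -0.14 to 0.35. Leaving out a library leaves 1 sample in a group, which is then assumed to vary like the others. The cause of these changes was not tested. Low counts limit Gins3, Orc1, Cdc7 and most histone genes.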
